A study of Mus musculus with 2 samples.

Results

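Interleukin 10, 4 Janus kinases (JAKs), the STAT factors Stat3, Stat5b and Stat6, and the shared receptor chain Il10rb were followed in mouse 1F9 cells. The cells carried an E47 construct, E47-ER, or a control made from part of E47, bHLH-ER. These 9 genes were chosen by gene symbol, with their measured intensities on the same arrays already known, so the differences between the arrays are given here as a description. Each of the 9 was represented by 1 of the 10349 probes that carry a gene symbol, out of 20289 probes in all. The array names 10208 distinct genes, of which 5563 reached the level limit explained below, and 6 of the 9 genes were among those.

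The 1F9 line was derived from a thymoma of a mouse lacking E2A, the gene that encodes the helix-loop-helix factors E12 and E47. Both cultures were E2A-deficient, carried a retrovirus that also encodes human CD25, received 4-hydroxytamoxifen for 6 hours beginning 1 day after infection, and were enriched with magnetic beads for human CD25. In the E47-ER culture the virus encoded E47 joined to an oestrogen receptor part, which the drug activates. In the bHLH-ER control culture the virus encoded the bHLH region of E47 without its N-terminal activation domain. By its name, this region too was joined to an oestrogen receptor part (ER), so the contrast is not E47 against no construct. Each construct was measured on 1 single-colour array of polyA RNA, so no difference has a replicate check and no p-value is given. All values come from 1 cell line, and both constructs were expressed in cells with no E2A protein of their own. Array and construct cannot be told apart.

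IL-10 is a secreted cytokine that restrains immune responses. It binds a receptor made of the chains IL-10RA and IL-10RB, which carry JAK1 and TYK2 on their inner side. These kinases phosphorylate the receptor and then STAT3, which dimerises and enters the nucleus to switch on genes, among them the feedback inhibitor Socs3. JAK3 pairs with the common gamma chain of receptors such as those for IL-2 and IL-7, JAK2 with receptors such as that for erythropoietin, STAT5B acts downstream of IL-2 and IL-7, and STAT6 downstream of IL-4.

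Among the 9 genes, Il10 had the largest difference between the arrays, and it was chosen with this contrast known. Il10 (Entrez gene 16153) had a scaled intensity of 6.79 on the bHLH-ER array and 29.1 on the E47-ER array. The probe was thus well above the level limit on both arrays and brighter with E47-ER. On the log2 scale, centred on each array's median, the levels were 2.703 and 4.82. The difference of 2.11, E47-ER minus bHLH-ER, corresponds to 4.33-fold and was the 8th highest of 5563 measured genes. Among the 500 probes nearest to Il10 in mean level, the log2 difference had a robust SD of 0.23, which leaves out the tails. All but the extreme ends of those 500 differences ran from -1.19 to 0.71, so the tails were wide and uneven. For the 55 measured genes that several probes represent, the pooled SD of the log2 difference between probes was 0.20. Neither SD holds the spread between cultures. In RNA from a whole culture, more cells that express Il10 and more Il10 RNA per cell cannot be told apart.

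A gene counted as measured when the mean of its log2 levels was at or above the median for the 19621 probes positive on both arrays, an intensity of about 1.03. It was called higher or lower at a fold of 2 or more. Of the 6 genes that passed the level limit, 1, Il10, was called higher, against 1.35% of all measured genes. None was called lower, against 0.270% of all measured genes. Il10 was among the genes because of this contrast, so nothing is read from its count.

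**Figure D1:**
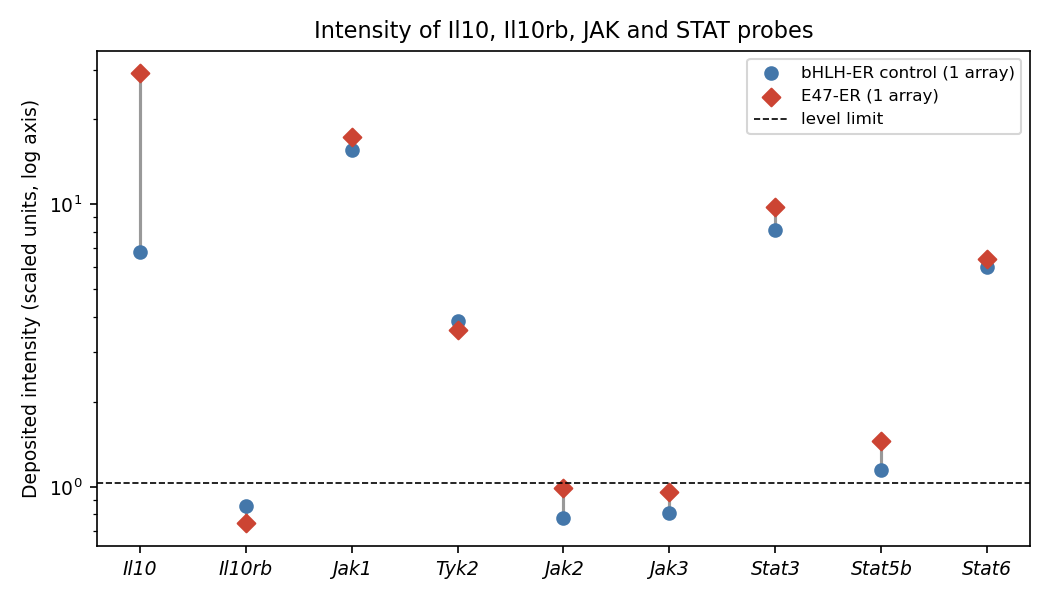
Deposited intensity (scaled units, log axis) of each of the 9 probes on the bHLH-ER array (circles) and the E47-ER array (diamonds), 1 array each, with the level limit as a dashed line. Il10 goes from 6.79 to 29.1, the other 8 pairs lie close together, and Il10rb, Jak2 and Jak3 lie under the limit on both arrays.

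The 2 receptor chains of IL-10 were dim. Il10rb (Entrez gene 16155), the chain that IL-10 shares with IL-22 and other relatives, had intensities of 0.853 on the bHLH-ER array and 0.745 on the E47-ER array. Both lie under the level limit, and the log2 difference of -0.18 was smaller than the robust SD of 0.25 among the 500 probes of nearest level. Il10ra, the chain specific to IL-10, read 0.0735 and 0.226. Its log2 difference of 1.63 lies in a range where the 500 nearest probes had a robust SD of 0.65, and it shrank to 0.35 when 0.5 was added to every intensity. No fold is taken from either chain, since a dim probe does not show whether a transcript is present.

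The kinases of the IL-10 receptor were both measured and lay within 2-fold. Jak1 (Entrez gene 16451), which also serves the common gamma chain and interferon receptors, had intensities of 15.6 and 17.3, a log2 difference of 0.16. Tyk2 (Entrez gene 54721), the partner kinase at IL-10, IL-12 and interferon receptors, had 3.87 and 3.58, a log2 difference of -0.10. One kinase was thus slightly brighter and the other slightly dimmer with E47-ER, each by less than the robust SD of the 500 nearest probes (0.24 for Jak1 and 0.28 for Tyk2). The median log2 difference over all measured genes was 0.11, so Jak1 lay 0.05 above that middle and Tyk2 0.20 below it.

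The remaining kinases were dim. Jak2 (Entrez gene 16452) read 0.774 on the bHLH-ER array and 0.991 on the E47-ER array, a log2 difference of 0.37. Jak3 (Entrez gene 16453), the kinase bound to the common gamma chain in lymphocytes, read 0.808 and 0.957, a log2 difference of 0.26. All 4 readings lie below the limit of about 1.03, although both probes were brighter with E47-ER. The robust SD of probes at these levels was 0.27 for Jak2 and 0.28 for Jak3, so the Jak2 difference exceeded it and the Jak3 difference did not.

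All 3 chosen STAT genes were measured, and none reached 2-fold. Stat3 (Entrez gene 20848), the main mediator of IL-10 signals, had intensities of 8.09 on the bHLH-ER array and 9.77 on the E47-ER array, a 1.22-fold and log2 difference of 0.29. Stat5b (Entrez gene 20851) had 1.14 and 1.45, a 1.28-fold and log2 difference of 0.36, with both readings just above the level limit. Stat6 (Entrez gene 20852), the mediator of IL-4 signals, had 6.02 and 6.40, a 1.07-fold and log2 difference of 0.10 that turned to -0.01 when the arrays' 75th percentiles were made equal. The 500 nearest probes had a robust SD of 0.24 for Stat3, 0.295 for Stat5b and 0.25 for Stat6. These SDs are taken around medians of 0.12, 0.0062 and 0.10. Counted from those medians, Stat5b exceeded its SD, and Stat3 and Stat6 did not. Relative to the middle of all measured genes, Stat3 lay 0.18 and Stat5b 0.25 above it, while Stat6 lay at it (-0.0033).

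Their measured relatives gave values of similar size. Stat5a, the close paralogue of Stat5b, had intensities of 7.15 and 6.00 (log2 difference -0.24), the opposite direction to Stat5b. Whether the probes of these near-identical genes detect one another's transcript was not tested. Stat2, a mediator of interferon signals, had 2.09 and 2.503 (0.27). Stat4, the mediator of IL-12 signals, was under the limit with 0.153 and 0.390. Its log2 difference was larger, at 1.37, and fell to 0.46 when 0.5 was added to every intensity.

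**Figure D2:**
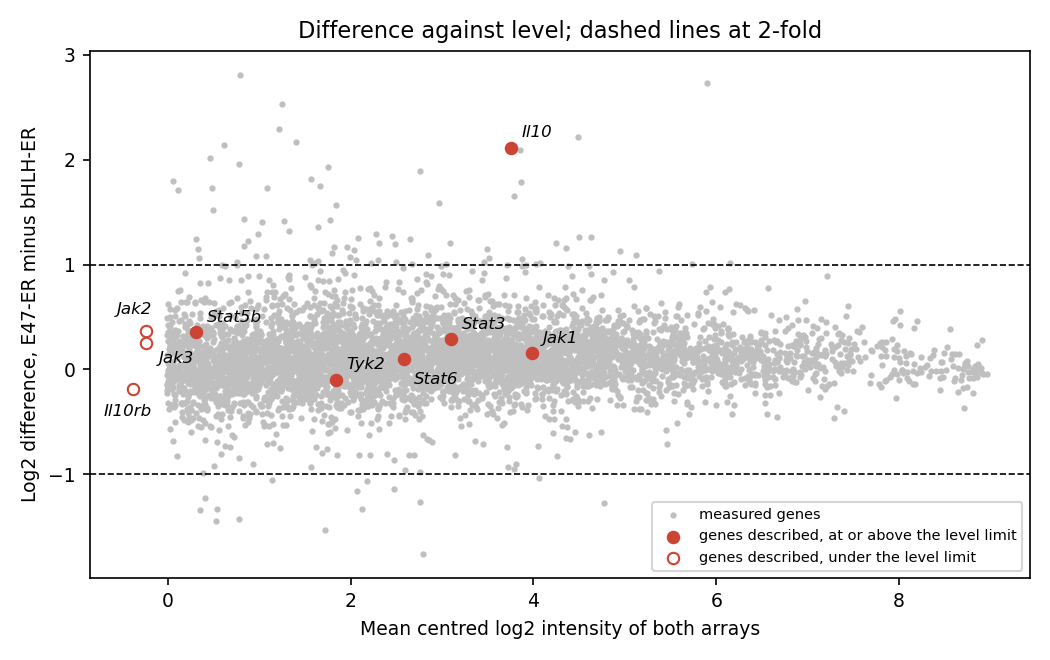
Log2 difference (E47-ER minus bHLH-ER) against mean centred log2 intensity of both arrays for 5563 measured genes (grey), with the 9 genes in red and those under the level limit as open circles. Il10 lies at 2.11 while the other 8 lie between -0.18 and 0.37, inside the dashed lines at 2-fold.

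The 5 measured JAK and STAT genes had a median log2 difference of 0.16, from -0.10 for Tyk2 to 0.36 for Stat5b, beside 0.11 over all measured genes. Of these 5, 4 had a difference above 0, and 3 lay above the median of all measured genes. Among all measured genes, 66.7% had a difference above 0. These 5 genes passed through their mean level over both arrays, and Jak2 and Jak3 are not in the count.

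E47 binds the E-box, the sequence CANNTG, and is known to favour forms with GC or GG in the middle. RefSeq start windows of GRCm38.p6, from 250 bases before to 50 after an annotated start, were matched by symbol for 7 of the 9 genes, giving 8 windows because Stat5b has several starts. Il10 and Il10rb are not among these windows. The motif CANNTG, which reads the same on the other strand, was found in 5 of the 8 windows, and 72.3% of all 32851 windows hold it. The palindrome CAGCTG was found in 3 of the 8, beside 16.3% of all windows. CAGGTG, or CACCTG for its other strand, was found in 0 of the 8, beside 20.2% of all windows. The 3 windows with CAGCTG are shown because that form is one E47 can bind, with each E-box in capitals and the annotated start follows the first 250 bases.
Jak2, chr19:29251553-29251852, plus strand: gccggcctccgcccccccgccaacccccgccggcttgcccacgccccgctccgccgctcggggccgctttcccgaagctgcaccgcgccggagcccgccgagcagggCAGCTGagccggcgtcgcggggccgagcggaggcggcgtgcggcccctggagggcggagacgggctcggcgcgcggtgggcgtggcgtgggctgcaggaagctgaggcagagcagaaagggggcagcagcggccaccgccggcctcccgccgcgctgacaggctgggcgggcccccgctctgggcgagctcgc
Stat3, chr11:100939491-100939790, minus strand: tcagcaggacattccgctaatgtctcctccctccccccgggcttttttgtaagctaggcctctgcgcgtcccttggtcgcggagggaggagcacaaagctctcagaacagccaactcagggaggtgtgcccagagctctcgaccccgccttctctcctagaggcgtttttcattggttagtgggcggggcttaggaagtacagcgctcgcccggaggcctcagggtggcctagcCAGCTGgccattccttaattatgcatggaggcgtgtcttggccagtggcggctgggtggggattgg
Stat5b, chr11:100822521-100822820, minus strand: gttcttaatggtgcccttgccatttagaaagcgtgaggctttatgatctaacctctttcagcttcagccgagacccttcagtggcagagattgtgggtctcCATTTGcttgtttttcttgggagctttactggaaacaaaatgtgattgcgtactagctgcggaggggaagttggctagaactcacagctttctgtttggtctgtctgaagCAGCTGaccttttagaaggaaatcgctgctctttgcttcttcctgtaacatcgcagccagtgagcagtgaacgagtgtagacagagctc
In the Jak2 window the E-box begins 143 bases before the start, and in the Stat3 window 16 bases before it. In the Stat5b window CAGCTG begins 39 bases before the start and CATTTG 149 bases before it, whereas the other Stat5b window holds no E-box. Jak1 has CACTTG and CAATTG at 189 and 120 bases before its start, and Tyk2 has CAAGTG beginning at base 17 after it. The windows of Jak3 and Stat6 hold none. A match describes letters in these windows and is not evidence of binding, which was not measured.

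Upstream of the kinases, cytokine receptor chains differed in both directions. Of 33 receptor chains that couple to JAKs, other than those of the IL-10 family, 26 had a named probe and 12 were measured. Of these 12, 1 was called higher, 1 lower and 10 lay within 2-fold, with a median log2 difference of -0.04. Over all measured genes, 1.35% were called higher and 0.270% lower. Il21r, the IL-21 receptor that signals through JAK1, JAK3 and STAT3, went from 0.907, under the limit, to 3.48, a log2 difference of 1.95 (1.51 after adding 0.5 to every intensity). It counts as measured through the array where it is bright. Il2ra, the IL-2 receptor alpha chain (CD25), went from 44.4 to 18.2, a log2 difference of -1.27. The viruses encode human CD25, and whether this probe detects that transcript too was not tested.

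Other chains showed smaller differences or were dim. Il7r, which works with JAK1 and JAK3, read 11.5 and 14.4 (log2 difference 0.34). Il6st, the gp130 chain that activates STAT3, was under the limit with 0.531 and 0.607. No probe carries the symbol Il2rg or Il4ra in the annotation used here.

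Feedback inhibitors held both large differences of the inhibitor list. Of 19 genes that restrain JAK-STAT signals, 11 were measured. Of these, 2 were called higher, beside 1.35% of all measured genes, and none lower, beside 0.270%. The other 9 lay within 2-fold, and the median log2 difference of the 11 was 0.07. Socs3, which blocks gp130-type receptors and JAK1, went from 0.764, under the limit, to 3.33, a log2 difference of 2.14 (1.61 after adding 0.5 to every intensity). Like Il21r, it counts as measured through the array where it is bright, so nothing is read from its call. Socs1, which blocks JAK kinases directly, went from 3.65 to 13.5, a log2 difference of 1.90. Cish, a STAT5 target and inhibitor, read 0.427 and 0.275, both under the limit. The median of the list lay below that of all measured genes.

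Genes known to respond to STAT factors were described by factor. Of 20 STAT3 target genes, 9 were measured, and 1, Socs3, was called higher. Bcl2l1, on both the STAT3 and STAT5 lists, lay just under the level limit in mean level and was not counted. It went from 0.718 to 1.45, a log2 difference of 1.03, so the number of calls depends on the limit. Of the 9, 8 had a difference above 0, as did 66.7% of all measured genes, and 6 lay above the median of all measured genes. Their median log2 difference was 0.21, from -0.33 for Myc to 2.14 for Socs3. Of 14 STAT5 target genes, 5 were measured, and 1, Il2ra, was called lower. Their median was 0.33. Of the 5, 4 lay above 0 and 3 above the median of all measured genes. Of 11 STAT6 target genes, 5 were measured, with Socs1 and Gfi1, a zinc-finger repressor that went from 2.88 to 6.29 (log2 difference 1.14), called higher. Their median was -0.08. Of these 5 STAT6 targets, 2 lay above 0 and 2 above the median of all measured genes. Gata3, also on this list, had the lowest difference (-0.98). Stat3 itself stands in the STAT3 list. Socs1 and Socs3 are also in the inhibitor list and Il2ra among the receptor chains, so their calls are the same ones counted above. Among all measured genes, 1.35% were called higher and 0.270% lower.

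**Figure D3:**
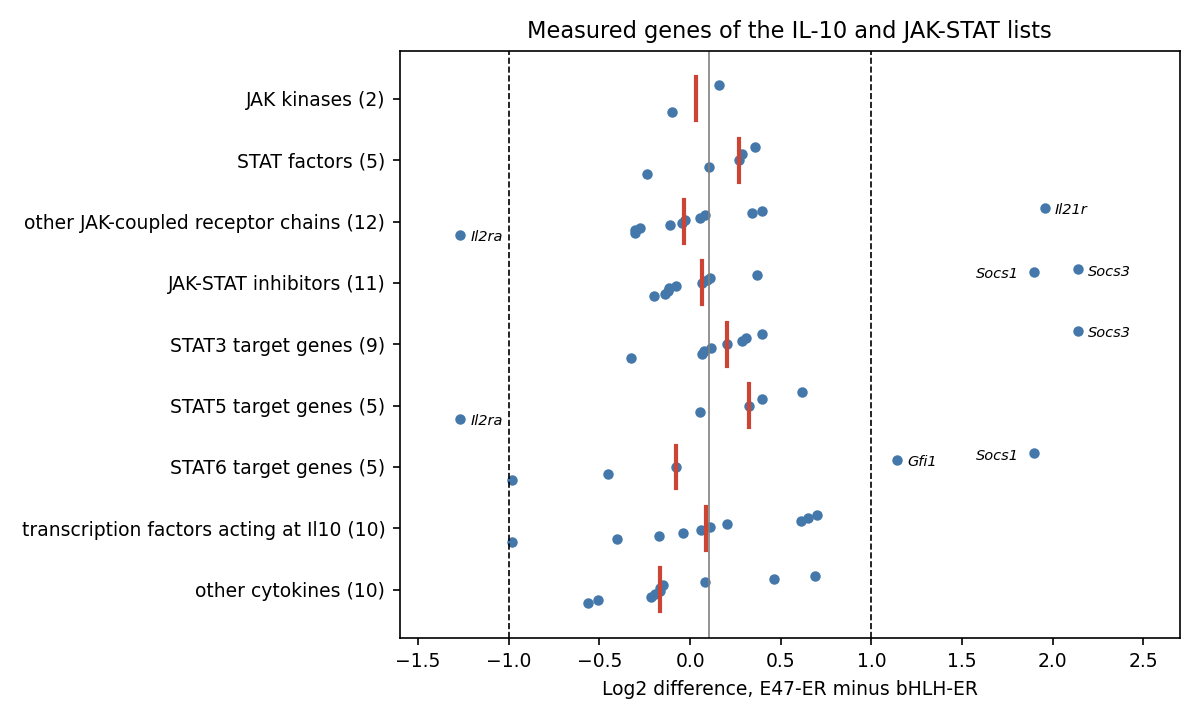
Log2 difference (E47-ER minus bHLH-ER) of the measured genes of 9 pathway lists, with the number measured in brackets. Red bars are list medians, the grey line is the median of all measured genes (0.11) and dashed lines mark 2-fold. Il21r, Socs1, Socs3 and Gfi1 lie right of 2-fold and Il2ra left of it.

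No other measured cytokine had a difference as large as that of Il10. Of 34 listed, 27 had a named probe, 10 were measured, and all 10 lay within 2-fold, with a median log2 difference of -0.17 and 3 of 10 above 0. The largest of these 10 was Il16, a T cell attractant, which went from 1.84 to 2.93 (log2 difference 0.69). The shares over all measured genes were 66.7% above 0, 1.35% called higher and 0.270% called lower. At these shares of calls, few or none of 10 genes would be called, so this list does not set Il10 apart. Ebi3, also listed, was far under the limit at 0.0131 and 0.0654. Its log2 difference of 2.34 was larger than that of Il10, but probes of nearest level had a robust SD of 1.93. No fold is taken from it. Within the IL-10 family, Il20 and Il24 had named probes, and both were under the limit on both arrays, at 0.631 and 0.664 for Il20 and 0.743 and 0.762 for Il24. Il10 was the only family member measured, out of 7 listed.

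Measured transcription factors listed as acting, or candidates for acting, at the Il10 gene lay within 2-fold in the scaling used. Of 22 listed, 17 had a named probe and 10 were measured, with a median log2 difference of 0.09 and 6 above 0. Over all measured genes, 66.7% lay above 0, 1.35% were called higher and 0.270% lower. Gata3, a T lineage factor, had the largest difference of the 10, with intensities of 9.92 and 4.97 (-0.98). It passed 2-fold with equal 75th percentiles (-1.09), quantile normalization (-1.07) and loess on level (-1.08). Hivep3 was at 0.70, Bhlhe40, a bHLH repressor, at 0.65 and Ets1 at 0.61. Irf4 was at 0.06 and Nfil3 at 0.20, and Batf was under the limit. Besides Gata3, Jun at -0.41, Mef2c at -0.17 and Ikzf1 at -0.04 lay below 0. Ahr, under the limit on both arrays at 0.199 and 0.465, had a log2 difference of 1.24. No probe carries the symbol Maf in the annotation used here.

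The 5 measured genes whose log2 difference was nearest to that of Il10, over these 2 arrays, were Ptcra, Socs3, Adgrg1, Hspb3 and Arpp21. Their distances from Il10 on the log2 scale were 0.024 for Ptcra and Socs3, 0.052 for Adgrg1, 0.10 for Hspb3 and 0.11 for Arpp21. With 2 arrays, likeness is equality of a single difference. Socs3 and Hspb3 were under the limit on the bHLH-ER array, at 0.764 and 0.715. When 0.5 was added to every intensity, Il10 had a log2 difference of 2.03, Ptcra 2.01 and Arpp21 2.16. Adgrg1, Socs3 and Hspb3 fell further, to 1.81, 1.61 and 1.476, so their nearness to Il10 depends on the pseudocount. Ptcra, which encodes the pre-TCR alpha subunit, had intensities of 7.32 and 30.8, and Id2, an inhibitor of E proteins, had the larger log2 difference of 2.73.

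**Figure D4:**
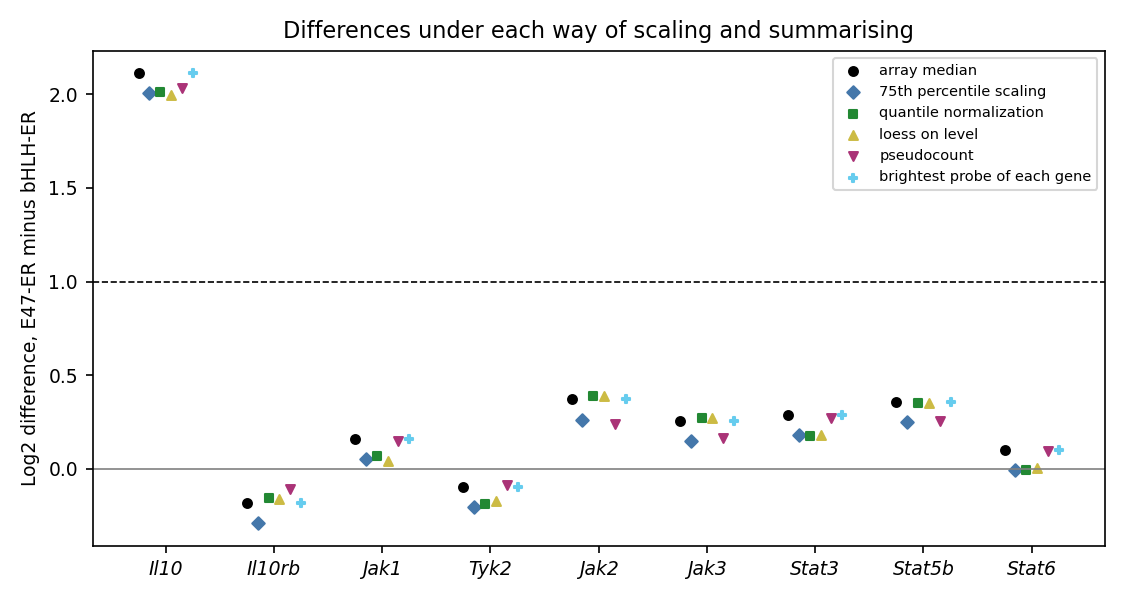
Log2 difference (E47-ER minus bHLH-ER) of each of the 9 genes under the main scaling by array median and 5 other ways of scaling or summarising, with 0 as a grey line and 2-fold as a dashed line. Il10 stays between 1.998 and 2.11, the other 8 lie between -0.29 and 0.39, and Stat6 crosses 0.

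Markers of thymocytes and of other cell types were read on the same arrays. Each sum below runs over all listed genes positive on both arrays, including those under the limit, in units of the array median, so that a few bright probes dominate it. Of 13 T cell and thymocyte markers, 11 had a named probe and all 11 were measured. Of these, Ptcra and Rag1, a recombinase gene that went from 52.1 to 104 (log2 difference 1.01), were called higher, and 9 lay within 2-fold. The share called higher was 1.35% over all measured genes. Rag1 fell short of 2-fold with equal 75th percentiles (0.91), quantile normalization (0.93) and loess on level (0.90). Cd3e and Zap70 had log2 differences of -0.47 and -0.18, and the other 9 lay above 0. Their summed level was 327.6 on the bHLH-ER array and 491 with E47-ER. The part of this difference in that of Il10 was not tested. Of 12 macrophage and myeloid markers, 9 had a named probe, 2 were measured, and the summed level was 7.52 and 7.35, with Elane not positive on both arrays. The measured ones went opposite ways, with 0.866 and 1.44 for Itgam and 5.43 and 4.63 for Spi1. Itgam was under the limit on the bHLH-ER array and counts as measured through the array where it is bright. Of 8 B cell markers, 3 were measured, with sums of 18.02 and 15.7. Of 6 regulatory T cell markers, 2 were measured, with sums of 9.85 and 10.1, and Foxp3 read 4.36 and 4.17. No NK cell marker reached the limit, with sums of 0.528 and 0.404 and Nkg7 not positive on both arrays. Of 8 erythroid markers, 2 were measured, with sums of 93.7 and 85.7, nearly all of it Tfrc. Of 9 fibroblast markers, 2 were measured, with sums of 31.3 and 21.8, mostly Vim.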

How the data were processed

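Intensities were deposited by the authors as 1 linear value per probe and array. Per the labels, polyA RNA was labelled with Cy3. The values run from -0.0829 to 555 with medians of 0.950 and 0.939 over all probes, and so look background-subtracted and scaled. For scanner, background method and exact scaling, the sources used here give nothing. Groups follow the sample titles, since both descriptions name the E47 fusion.

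Of 20289 probes, 668 without a positive value on both arrays were left out. The log2 values of each array were centred on their median over the other 19621. Symbols came from the platform annotation, updated through Entrez gene IDs with the RefSeq table of GRCm38.p6. Probes of one gene were averaged. With 1 array per construct no test was run, and the number of arrays limits the precision. The genes named are the 9, 15 fixed pathway genes, each pathway list's genes past 2-fold or its largest difference, and the 5 nearest to Il10. Further examples (Myc, Bcl2l1, Hivep3, Bhlhe40, Ets1, Irf4, Nfil3, Batf, Ahr, Jun, Mef2c, Ikzf1, Ebi3, Il20, Il24 and the single cell type markers) were added after their values were seen. Genes and lists were chosen with earlier results of these data known. One listed gene and its target list are not reported here. The calling procedure was tested on simulated data with normally distributed noise of the robust SD at each level. That noise lacks the wide tails of these arrays and any spread between cultures. It therefore cannot show how often unchanged genes pass 2-fold here. Python 3.11.15, numpy 2.4.6, pandas 2.3.3, statsmodels 0.14.6 and matplotlib 3.10.9 were used. Alternatives were 75th percentile, quantile and loess (span 0.3) scaling, level limits at the 25th and 75th percentile, a pseudocount of 0.5, the brightest probe per gene, and a fold of 1.5.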

Additional observations from a re-analysis of the deposited data

How the results depend on the processing

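Il10 kept its call under all alternatives run, with a log2 difference from 1.998 to 2.11. Among the measured genes of the 9 chosen by symbol, 1 was called higher and 0 lower in each of them, also at a fold of 1.5, and their median lay between 0.11 and 0.29. Jak1, Jak2, Jak3, Stat3 and Stat5b stayed above 0 and Il10rb and Tyk2 below 0 in the 6 scalings and summaries tried. Equal 75th percentiles moved the median of all measured genes from 0.11 to -0.0023, and the share of calls that were higher from 83.3% to 68.4%. Quantile and loess scaling gave shares of 74.3% and 73.7%, and a 25th percentile level limit 70.9%. The number of measured genes at least 2-fold higher was 75, and became 129 and 25 with the level limit at the 25th and 75th percentile and 301 at a fold of 1.5. The number at least 2-fold lower was 15, and became 24 with equal 75th percentiles, 53 and 4 with those level limits and 69 at a fold of 1.5. With the 25th percentile limit, which admits dimmer genes, list medians became 0.088 for IL-10 family cytokines (3 genes), 0.054 for STAT5 target genes (10 genes) and -0.038 for myeloid markers (5 genes). With the 75th percentile limit, which left 2 genes or fewer, they became -0.47 for STAT5 target genes, 0.46 for STAT6 target genes, -0.51 for factors acting at Il10 and -0.66 for fibroblast markers. In all, 280 of 301 values under alternatives moved by less than the spread between probes of a gene (0.20 on the log2 scale) or, for counts, by no more than 1.5 times, and 0 called values changed sign. Taking the brightest probe cannot change a gene with 1 probe, such as each of the 9. Those unchanged values are counted here but test nothing. No replicate could be left out with 1 array per construct. No paired analysis was possible because each construct has a single array. Differences of dim probes such as Il10ra and Stat4 depend on the pseudocount, which brought them to 0.35 and 0.46.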
